A study of Mus musculus with 18 samples.

Results

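The genes described here are those of cholesterol synthesis and of its control by SREBP2. They are a set of 28 mouse genes chosen by symbol for their role, with earlier results of these data known. Counts of members below are thus descriptions and not an independent test of the set. The set holds 20 enzymes between acetoacetyl-CoA and cholesterol, 4 genes of the SREBP2 switch and 4 genes of sterol uptake, transfer and storage. A member was read from the probe set whose annotated symbol was exactly its name, and Scap, which had several, from the one with the highest mean. By this rule 25 of the 28 members were measured, among 22180 genes tested. Acat2 and Soat2 are not listed in the annotation used, and Idi1 stood only on a probe set with several symbols. The measured members include 18 of the 20 enzymes.

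RNA was taken from the ileum, the last part of the small intestine, of 18 B10.BR mice and hybridised to 1 whole-transcript array per mouse. All were 8 to 12 weeks old when they received 11 Gy of lethal whole-body irradiation, and 1 day later all received 5000000 marrow cells, depleted of T cells, from C57Bl/6 donors of another tissue type. Marrow-only mice received nothing more, while T cell mice were also given 2000000 purified donor T cells and develop graft-versus-host disease (GvHD), in which donor T cells attack the tissues of the recipient. Starting 1 day before transplant, each arm was gavaged daily either with 150 mg/kg of indole-3-carboxaldehyde (ICA), a tryptophan product of gut bacteria that binds the aryl hydrocarbon receptor, or with vehicle, a mix of 20% DMSO, 40% PEG400 and 2% citric acid. There were 4 marrow-only mice and 4 T cell mice on vehicle and 5 of each on ICA, all sampled on day 21. No group was left without irradiation or transplant, so each level is that of a transplanted ileum.

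Cells make cholesterol from acetyl-CoA through mevalonate, the isoprenoids and squalene, and then convert lanosterol to cholesterol in a series of oxidations and reductions. When sterols are plentiful, INSIG proteins hold the escort protein SCAP and the transcription factor precursor SREBP2 in the endoplasmic reticulum. When sterols run short, SCAP carries SREBP2 to the Golgi, where it is cut, and its free part enters the nucleus and raises the genes of nearly every step of the pathway. In the ileum, enterocytes make cholesterol, take it up from the lumen and recover bile acids, the products into which the liver turns it.

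Values below are deposited log2 levels. A difference is given on the log2 scale with its SE, from a single limma fit to all 18 arrays. A member was said to rise or fall at an adjusted p under 0.05 over the 22180 genes, and unadjusted p under 0.05 is named as such. Array medians lay between 6.469 and 6.51, and arrays correlated with each other at r between 0.978 and 0.993 across genes, which are not independent. From earlier results of these data, 3 arrays were taken to stand apart: mouse 3 of the marrow-only vehicle group, mouse 1 of the marrow-only ICA group and mouse 1 of the T cell ICA group. Each had the lowest median r with the other arrays of its own group (0.9891, 0.9825 and 0.9849), although the ICA groups held further arrays below 0.9891. In the T cell vehicle group mouse 2 was lowest, at 0.9895 against 0.99 to 0.9905. Counts of members that passed or did not overlap are also given without the 3 arrays. The ileal enterocyte genes Fabp6 and Slc10a2 lay at 11.8 to 12.7 and 10.3 to 11.1 over the 18 mice, and the hepatocyte gene Alb at 5.45 to 7.33. Each group enters more than 1 comparison, so comparisons that share mice are set side by side and not counted as separate evidence. Levels of different genes are not compared with each other, since probe sets differ in response.

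Across the 4 groups the enzymes were low in marrow-only mice on vehicle, high in T cell mice on vehicle, and in between or high in mice on ICA, depending on the graft. The mean log2 level of the 18 enzymes in a mouse was 9.11 ± 0.08 (SD, n = 4) in marrow-only mice on vehicle and 9.39 ± 0.10 (n = 4) in T cell mice on vehicle. On ICA it was 9.33 ± 0.09 (n = 5) in marrow-only mice and 9.17 ± 0.18 (n = 5) in T cell mice. The single mice ran from 9.01 to 9.20, from 9.29 to 9.50, from 9.23 to 9.48 and from 8.87 to 9.34 in these 4 groups. The T cell mice on vehicle and the marrow-only mice on ICA therefore lay wholly above the marrow-only mice on vehicle, while the T cell mice on ICA overlapped every other group. T cell mice on vehicle had the highest group mean for 11 of the 18 enzymes and marrow-only mice on ICA for the other 7. The lowest group mean belonged to marrow-only mice on vehicle for 13 enzymes, to T cell mice on ICA for 4 (Cyp51, Msmo1, Mvd and Hsd17b7) and to marrow-only mice on ICA for Tm7sf2.

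**Figure D1:**
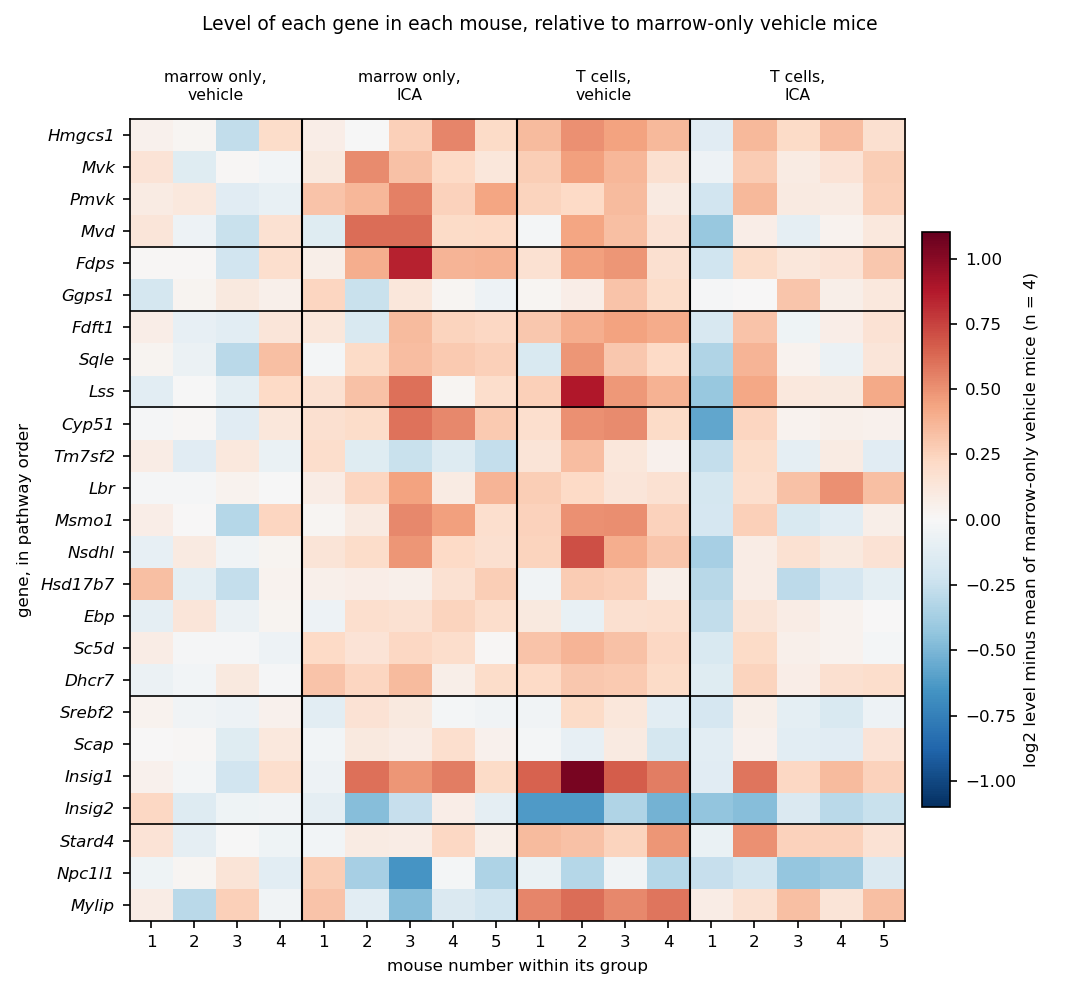
Heat map of the log2 level of each of the 25 measured members (rows, in pathway order, with black lines between roles) in each of the 18 mice (columns, by group and mouse number), minus the mean of the 4 marrow-only vehicle mice; red is higher and blue is lower, in log2 units. The enzyme rows are mostly red in T cell mice on vehicle and in marrow-only mice on ICA, Insig1 is highest and Insig2 lowest in T cell mice on vehicle, and T cell ICA mouse 1 is blue or near 0 in the enzyme rows.

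The count of enzymes above their marrow-only vehicle mean shows how evenly the mice of a group moved. It was 15, 17, 18 and 18 of 18 in the T cell mice on vehicle and 15, 14, 17, 17 and 16 in the marrow-only mice on ICA, each in the order of mouse number. In the T cell mice on ICA it was 0, 18, 13, 15 and 15, so 1 mouse of this group had no enzyme above that mean. That mouse, T cell ICA mouse 1, had the lowest level of all 18 mice for 13 of the 18 enzymes and 14 of the 25 members, and also for 15.8% of all genes. In the marrow-only vehicle mice themselves the count was 11, 8, 5 and 12.

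In mice on vehicle, the question was how donor T cells changed these genes. Insig1, Mylip and Sc5d rose and Insig2 fell, 4 of 25 members, where 1.47% of all genes changed (0.794% higher and 0.681% lower). By sign 22 members were higher and 3 lower, against 51.9% and 48.1% of all genes. All 18 enzymes had a higher mean with T cells, by 0.10 to 0.50, and 11 of them passed an unadjusted p under 0.05. Over all members 14 were higher and 1 was lower at that unadjusted level, against 7.58% and 5.42% of all genes. The median difference was 0.25 over the 25 members and 0.0076 over all genes. Without overlap between the groups, 13 members were higher and 1 was lower, against 6.33% and 4.21% of all genes. In bulk tissue, fewer cells of a type and less RNA per cell cannot be told apart.

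Of the 4 members that passed, 2 belong to the SREBP2 switch, 1 to sterol uptake and 1 to the late steps of synthesis. Insig1, which holds SCAP and SREBP2 back and is itself raised by SREBP2, had levels of 9.79, 9.71, 9.53 and 9.92 in the marrow-only mice and 10.39, 10.78, 10.41 and 10.30 in the T cell mice. The groups did not overlap, and Insig1 rose by 0.73 ± 0.15 or 1.66-fold (adjusted p = 0.0155). Insig2 encodes a second INSIG protein with the same action on SCAP that is not raised by SREBP2. It lay at 9.26, 8.89, 8.98 and 8.99 in the marrow-only mice and 8.41, 8.405, 8.70 and 8.51 in the T cell mice. Every T cell mouse was below every marrow-only mouse, and Insig2 fell by 0.53 ± 0.11, which is 1.44-fold (adjusted p = 0.0179). The 2 INSIG genes thus moved in opposite directions.

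Mylip, a ubiquitin ligase that sterols induce through LXR and that marks lipoprotein receptors for breakdown, was at 8.95, 8.58, 9.14 and 8.84 in the marrow-only mice. In the T cell mice it was at 9.41, 9.49, 9.41 and 9.46, a span far narrower than that of the controls, and it rose by 0.57 ± 0.13 or 1.48-fold (adjusted p = 0.0286). Sc5d, the desaturase that makes the last ring double bond before the final reduction, was at 10.24, 10.14, 10.14 and 10.09 without and 10.47, 10.525, 10.47 and 10.38 with T cells. It rose by 0.31 ± 0.07 or 1.24-fold (adjusted p = 0.0397), and its groups did not overlap.

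The calls depended on single mice. Without T cell vehicle mouse 2 no member passed the limma test, and 0.654% of all genes did. Under an unadjusted p of 0.05 there were 12 members, with the share of all genes at that level not counted. Insig1 alone passed when mouse 1 or mouse 4 of the marrow-only vehicle group, or mouse 4 of the T cell vehicle group, was left out, where 0.424% to 0.649% of all genes passed. Insig1 and Insig2 alone passed when mouse 2 of the marrow-only vehicle group or mouse 3 of the T cell vehicle group was, with 0.753% and 0.703% of all genes. Without T cell ICA mouse 1, 8 members passed, with Hmgcs1, Fdft1, Nsdhl and Stard4 added, and 2.32% of all genes. Without the 3 arrays that stood apart, 7 members passed, with Dhcr7, Nsdhl and Stard4 added, and 2.99% of all genes. The members without overlap were then again 13 higher and 1 lower, against 9.08% and 6.64% of all genes. Insig1 was lost only without T cell vehicle mouse 2 (adjusted p = 0.0683). Insig2 did not pass once mouse 1 or 4 of the marrow-only or mouse 2 or 4 of the T cell vehicle group was left out (adjusted p up to 0.0762). For Mylip these were mice 1, 2 and 4 of the marrow-only and mice 2, 3 and 4 of the T cell vehicle group (up to 0.102). Sc5d was lost without any 1 of the 8 vehicle mice, marrow-only ICA mouse 4, or T cell ICA mouse 3 or 4 (up to 0.131).

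The sequences upstream of these 4 genes and of Hmgcs1 are shown because nuclear SREBP2 acts on promoters, where it binds sterol regulatory elements beside NF-Y, a factor that binds CCAAT boxes. Each is the 250 bases before the annotated start in RefSeq (GRCm38.p6), written 5′ to 3′ in the direction of the gene. Hmgcs1 is at chr13:119690101-119690350 (plus strand), Insig1 at chr5:28071162-28071411 (plus), Sc5d at chr9:42264301-42264550 (minus), Mylip at chr13:45389492-45389741 (plus) and Insig2 at chr1:121332590-121332839 (minus). Insig2 has 3 listed starts, and the one with the most CCAAT boxes is printed. Capitals mark CCAAT boxes, which read CCAAT or, on the other strand, ATTGG, and in Hmgcs1 also a match to TCACNCCAC, the sterol regulatory element searched here.
Hmgcs1: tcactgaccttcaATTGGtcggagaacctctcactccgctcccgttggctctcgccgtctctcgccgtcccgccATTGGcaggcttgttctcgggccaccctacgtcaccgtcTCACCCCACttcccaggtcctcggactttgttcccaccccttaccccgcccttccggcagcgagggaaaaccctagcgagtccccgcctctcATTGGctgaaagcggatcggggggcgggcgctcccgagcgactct
Insig1: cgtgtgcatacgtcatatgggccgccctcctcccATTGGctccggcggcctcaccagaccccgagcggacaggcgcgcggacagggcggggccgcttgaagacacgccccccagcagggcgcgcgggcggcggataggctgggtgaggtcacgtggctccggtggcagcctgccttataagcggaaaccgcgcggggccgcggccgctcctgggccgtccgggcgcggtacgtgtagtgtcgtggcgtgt
Sc5d: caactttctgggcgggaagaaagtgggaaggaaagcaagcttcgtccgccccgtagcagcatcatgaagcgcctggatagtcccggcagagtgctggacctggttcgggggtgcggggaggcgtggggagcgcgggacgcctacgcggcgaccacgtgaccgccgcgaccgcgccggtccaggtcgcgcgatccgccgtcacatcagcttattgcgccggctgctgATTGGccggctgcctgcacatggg
Mylip: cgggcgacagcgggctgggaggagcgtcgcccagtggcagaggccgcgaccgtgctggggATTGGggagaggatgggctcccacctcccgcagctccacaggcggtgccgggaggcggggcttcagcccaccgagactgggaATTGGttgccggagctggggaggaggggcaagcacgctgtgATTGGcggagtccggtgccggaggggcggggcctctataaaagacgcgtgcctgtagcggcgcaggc
Insig2: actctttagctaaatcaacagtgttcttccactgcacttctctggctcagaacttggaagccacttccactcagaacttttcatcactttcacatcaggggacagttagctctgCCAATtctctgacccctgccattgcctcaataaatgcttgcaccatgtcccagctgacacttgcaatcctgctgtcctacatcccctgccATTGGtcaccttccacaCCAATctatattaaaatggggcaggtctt
Hmgcs1, which is shown for its element, has TCACCCCAC at positions -137 to -129 from the start, with CCAAT boxes on both sides of it. Insig1 and Sc5d each have 1 CCAAT box in the window, and Hmgcs1, Mylip and the printed start of Insig2 each have 3. The other 2 listed starts of Insig2 have 0.

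CCAAT boxes were common in the promoters of the whole set. Of the 28 members 23 had an entry in the promoter table, and 21 of these (91.3%) held CCAAT on either strand, against 37.5% of 27025 genes with an entry and 39.2% of the 5368 with a mean level at or above that of the lowest member. A gene with several listed starts was counted if any of them held the letters. Counted by start, 21 of 29 starts of members held CCAAT, against 33.9% of 32851 starts. The exceptions were Acat2 and Scap. TCACNCCAC or its other strand GTGGNGTGA was found in Hmgcs1 alone among the 23, and in 1.23% of genes. Only this string was searched, so the other members are not shown to lack a sterol regulatory element. The E-box CACGTG, which reads the same on both strands, was found in Dhcr7, Hsd17b7, Insig1, Sc5d and Scap (21.7%), against 6.86% of genes and 10.7% of those at the members' levels. The GC box GGGCGG, or CCGCCC on the other strand, was in 20 members (87.0%), against 35.4% and 66.4%. A match describes letters in the window and shows no binding. The members without a matched entry were Fdps, Fdft1, Sqle, Stard4 and Soat2.

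Along the pathway, the mevalonate steps came first. Hmgcs1, the synthase that makes HMG-CoA, was at 10.89, 10.85, 10.56 and 11.035 in marrow-only and 11.18, 11.335, 11.28 and 11.19 in T cell mice on vehicle. These groups did not overlap, with a difference of 0.41 ± 0.12 (adjusted p = 0.0844). The mevalonate kinase Mvk differed by 0.32 ± 0.10, again without overlap. The next enzymes, the phosphomevalonate kinase Pmvk and the decarboxylase Mvd, differed by 0.23 ± 0.10 and 0.23 ± 0.15 with overlap. Of the isoprenoid steps, Fdps, which makes farnesyl diphosphate for squalene, differed by 0.32 ± 0.13. Ggps1, which takes farnesyl diphosphate away from sterols to make the geranylgeranyl group of proteins, differed by 0.15 ± 0.10.

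Between squalene and lanosterol, Fdft1 and Lss were higher without overlap and Sqle was not. Fdft1, squalene synthase and the first enzyme committed to sterols, was at 10.76, 10.60, 10.57 and 10.825 without and 10.98, 11.09, 11.13 and 11.10 with T cells. All 4 T cell mice lay above all 4 marrow-only mice, a difference of 0.39 ± 0.11 (adjusted p = 0.0721). Lss, which closes the rings to lanosterol, was at 8.02, 8.13, 8.03 and 8.36 without and 8.39, 9.015, 8.61 and 8.51 with T cells. Its difference of 0.50 ± 0.16 was the largest of the 18 enzymes, but T cell vehicle mouse 2 stood well above the rest and the adjusted p was 0.144. Sqle, the squalene epoxidase between them, differed by 0.21 ± 0.15 with overlapping groups.

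Between lanosterol and cholesterol, 6 of the 9 measured enzymes were higher in T cell mice on vehicle without overlap, against 6.33% of all genes. They were Cyp51, Lbr, Msmo1, Nsdhl, Sc5d and Dhcr7. Nsdhl, which with the oxygenase Msmo1 and the reductase Hsd17b7 strips methyl groups from the ring, was at 9.49, 9.67, 9.53 and 9.61 without and 9.815, 10.285, 9.97 and 9.88 with T cells. The difference was 0.41 ± 0.11 (adjusted p = 0.0779), against 0.38 ± 0.13 for Msmo1 and 0.14 ± 0.11 for Hsd17b7. The lanosterol demethylase Cyp51 differed by 0.35 ± 0.14. Lbr and Tm7sf2 encode reductases of the same double bond, and Lbr also anchors chromatin at the nuclear envelope. They differed by 0.20 ± 0.11 and 0.16 ± 0.11. The isomerase Ebp had the smallest difference of the enzymes, 0.10 ± 0.09, and Dhcr7, which makes the final reduction to cholesterol, differed by 0.25 ± 0.08.

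For the SREBP2 gene itself the RNA difference was near 0, with an interval that still held the smaller of the enzyme differences. Srebf2 was at 10.79, 10.71, 10.70 and 10.80 in marrow-only and 10.71, 10.96, 10.88 and 10.63 in T cell mice on vehicle, and the groups overlapped fully. The difference was 0.04 ± 0.08 with a 95% confidence interval of -0.12 to 0.21 (adjusted p = 0.883). Scap, its escort, differed by -0.05 ± 0.08 (-0.22 to 0.12). The processed SREBP2 protein was not measured by the arrays. Of the members outside synthesis, Stard4, a cytosolic sterol carrier, was at 9.295, 9.04, 9.14 and 9.09 without and 9.49, 9.47, 9.39 and 9.625 with T cells. It did not overlap and differed by 0.35 ± 0.10 (adjusted p = 0.0785). Npc1l1, the transporter that takes cholesterol from the lumen into enterocytes, lay the other way at -0.19 ± 0.14 (adjusted p = 0.628).

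**Figure D2:**
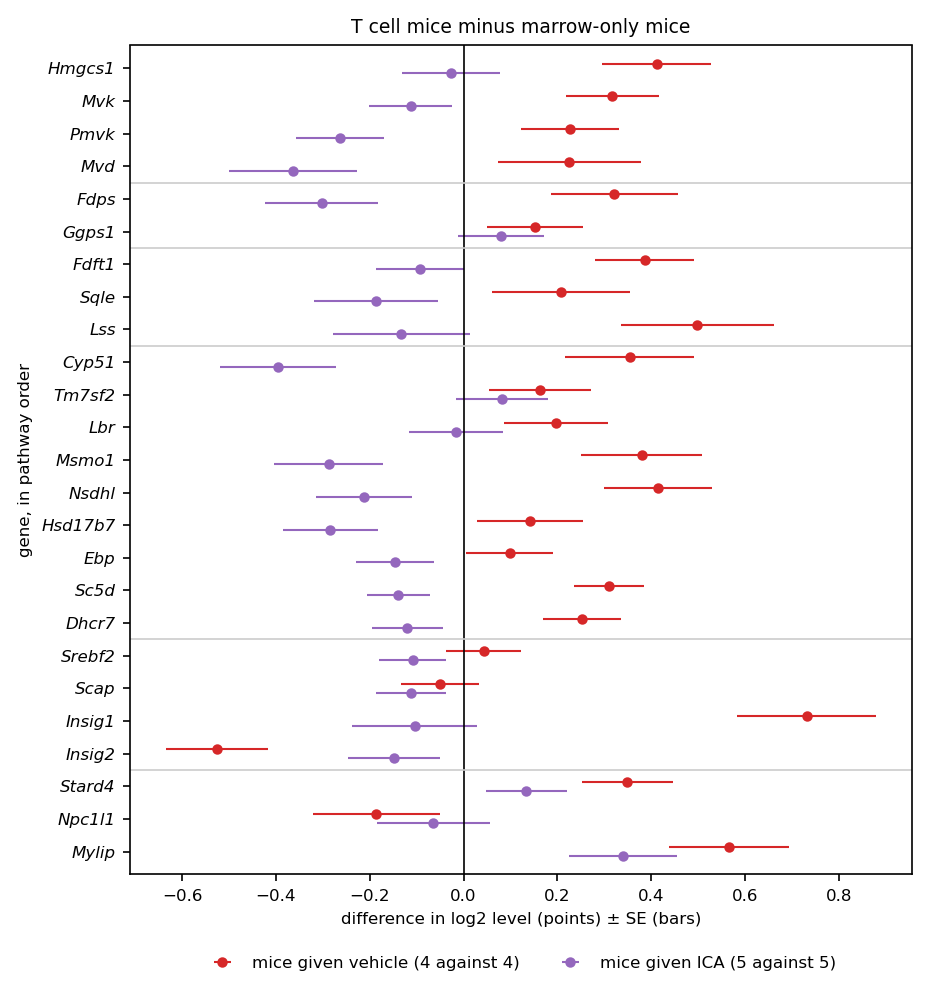
T cell mice minus marrow-only mice in log2 level for each of the 25 members in pathway order; points are differences and bars are ± SE from the limma model, in red for mice on vehicle (4 against 4) and in purple for mice on ICA (5 against 5). On vehicle all 18 enzymes lie to the right of 0, with Insig1 at 0.73 and Insig2 at -0.53, and on ICA 16 of the 18 enzymes lie to the left of it.

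The same question in mice on ICA gave another picture. No member passed the limma test, where 3.12% of all genes changed (1.05% higher and 2.07% lower), and the median difference was -0.12 over the members against -0.0086 over all genes. At an unadjusted p under 0.05, 1 member was higher (Mylip) and 6 were lower (Pmvk, Mvd, Fdps, Cyp51, Msmo1 and Hsd17b7), against 7.43% and 9.19% of all genes. By sign 4 members were higher and 21 lower, against 47.6% and 52.4% of all genes, and 16 of the 18 enzymes were lower with T cells, all but Ggps1 and Tm7sf2. No member separated the groups without overlap, as 1.16% of all genes did upward and 2.17% downward. Cyp51 had the smallest adjusted p, with a difference of -0.40 ± 0.12 (adjusted p = 0.091).

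In single mice on ICA, Cyp51 lay at 9.23, 9.25, 9.65, 9.58 and 9.33 in marrow-only and 8.48, 9.28, 9.09, 9.11 and 9.10 in T cell mice. T cell ICA mouse 1 was far below the others, and T cell ICA mouse 2 lay within the range of the marrow-only group. Mylip lay at 9.19, 8.76, 8.41, 8.72 and 8.66 without and 8.955, 9.045, 9.21, 9.02 and 9.205 with T cells, so marrow-only ICA mouse 1 reached the T cell range. Its difference was 0.34 ± 0.11 (adjusted p = 0.118). Without marrow-only ICA mouse 1, 4 members passed: Mylip was higher and Cyp51, Fdps and Mvd were lower, where 6.19% of all genes passed. Without all 3 arrays that stood apart, Mvd and Mylip passed, where 6.83% of all genes did. There Tm7sf2 and Mylip were higher and Mvd, Fdps, Nsdhl and Ebp lower without overlap, against 5.87% and 5.35% of all genes. Without T cell ICA mouse 1 alone no member passed, and the median over members was -0.0784.

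The next comparison asks what ICA did in T cell mice. In limma no member passed, and 0.0135% of all genes did, all of them lower. The members lay lower with ICA: by sign 22 of 25 were lower and 3 higher, against 53.4% and 46.6% of all genes, and 17 of the 18 enzymes were lower, with Lbr the exception. The median difference was -0.20 against -0.010 over all genes. At an unadjusted p under 0.05, 9 members were lower and 0 higher, against 3.83% and 3.06% of all genes. These were Fdft1, Lss, Cyp51, Msmo1, Nsdhl, Hsd17b7, Sc5d, Insig1 and Mylip, which are 7 enzymes of the squalene and lanosterol steps with Insig1 and Mylip. No enzyme of the mevalonate or isoprenoid steps was among them. In limma their unadjusted p ran from 0.0607 for Hmgcs1 to 0.57 for Ggps1. Mvd, at -0.28, differed about as much as Sc5d at -0.29. The early and late steps were not tested against each other. Nsdhl, Sc5d and Mylip were lower without overlap and no member was higher, against 1.78% and 1.11% of all genes.

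The T cell mice on vehicle, whose levels are given above, are also the high group of the first comparison, so the 2 comparisons share these 4 mice and are not independent. With ICA, Insig1 lay at 9.61, 10.325, 9.97, 10.08 and 9.99 in the T cell mice, where T cell ICA mouse 2 reached the vehicle range. The difference was -0.47 ± 0.14 (adjusted p = 0.41). Sc5d lay at 9.98, 10.36, 10.20, 10.19 and 10.13, below all 4 vehicle mice, with a difference of -0.29 ± 0.07 and the smallest adjusted p of the members (0.291). Nsdhl, the ring-stripping dehydrogenase, lay at 9.21, 9.655, 9.74, 9.69 and 9.74, also below all 4, with -0.38 ± 0.11 (adjusted p = 0.366). Mylip lay at 8.955, 9.045, 9.21, 9.02 and 9.205, and its difference was -0.36 ± 0.12 (adjusted p = 0.524). Its groups did not overlap either.

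The other large differences were in Msmo1 (-0.41 ± 0.12), Cyp51 (-0.39 ± 0.13), Lss (-0.37 ± 0.16), Fdft1 (-0.32 ± 0.10) and Hsd17b7 (-0.30 ± 0.11). The 4 mevalonate enzymes ranged from -0.28 for Mvd to -0.11 for Pmvk, and Ggps1 stood at -0.06 ± 0.10. Insig2, the member that had fallen with T cells, had a positive difference of 0.21 ± 0.10 (adjusted p = 0.748), with T cell ICA mice at 8.595, 8.56, 8.875, 8.73 and 8.79. Srebf2 lay at -0.13 ± 0.08 and Scap at 0.02 ± 0.08. T cell ICA mouse 1 contributed to the size of these values. Without it the median over members was -0.128, Cyp51 differed by -0.26, Nsdhl by -0.28, Sc5d by -0.24 and Insig1 by -0.38, and the same number of enzymes, 17 of 18, were lower. Nsdhl, Sc5d and Mylip still did not overlap, without this mouse or without the 3 arrays, where 2.76% of all genes were lower without overlap. Without T cell ICA mouse 2, 14 members were under an unadjusted p of 0.05 in place of 9. There 0.0406% of all genes passed after adjustment, against 0.0135% as reported, and the share at the unadjusted level was not counted.

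**Figure D3:**
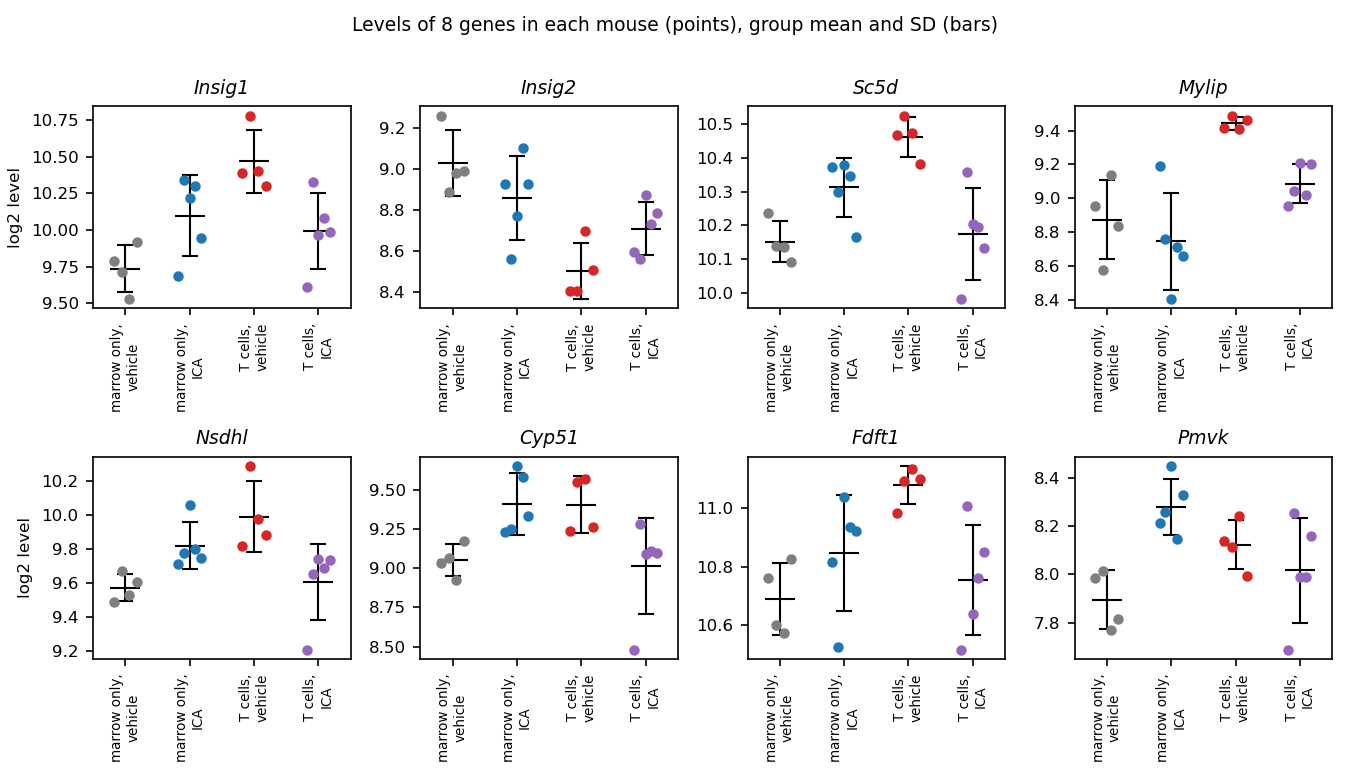
Log2 levels of 8 members in single mice (points) by group, with the group mean and SD (bars); the vertical axes differ between panels. The group means of Insig1, Sc5d, Mylip, Nsdhl and Fdft1 are highest in T cell mice on vehicle and that of Insig2 is lowest there, and the mean of Pmvk is highest in marrow-only mice on ICA.

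In marrow-only mice ICA went with higher levels. No member passed the limma test and 0.00451% of all genes did. By sign 21 of 25 members were higher with ICA and 4 lower, against 53.5% and 46.5% of all genes. Of the 18 enzymes 17 were higher, and the median was 0.22 over the members against 0.012 over all genes. At an unadjusted p under 0.05, 11 members were higher, 10 of them enzymes, and 0 were lower, against 4.24% and 3.29% of all genes. Pmvk, Cyp51, Lbr and Nsdhl were higher without overlap and no member was lower, against 1.35% and 0.825% of all genes. Without the 3 arrays that stood apart, 9 members were higher without overlap, with Mvd, Fdps, Ebp, Dhcr7 and Insig1 added, and Tm7sf2 was lower, against 4.96% and 3.58% of all genes. The marrow-only vehicle mice enter both this comparison and the first one.

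The largest difference was in Fdps, the farnesyl diphosphate synthase, which lay at 9.89, 9.89, 9.67 and 10.06 on vehicle and 9.94, 10.28, 10.72, 10.25 and 10.26 on ICA. Marrow-only ICA mouse 3 stood above the rest, marrow-only ICA mouse 1 lay within the vehicle range, and the difference was 0.41 ± 0.13 (adjusted p = 0.598). Pmvk lay at 7.98, 8.015, 7.77 and 7.82 on vehicle and 8.21, 8.26, 8.45, 8.15 and 8.33 on ICA, without overlap. It differed by 0.38 ± 0.10 and had the smallest adjusted p of the members, 0.561. Cyp51 lay at 9.035, 9.07, 8.92 and 9.17 on vehicle, below all 5 mice on ICA, and differed by 0.36 ± 0.13. For Insig1 the difference was 0.36 ± 0.14 (adjusted p = 0.618), with marrow-only ICA mice at 9.685, 10.34, 10.22, 10.30 and 9.95. Here mouse 1 lay among the vehicle mice.

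Of the further enzymes, Mvd differed by 0.31 ± 0.14, Lss by 0.26 ± 0.16, Mvk by 0.26 ± 0.09, Msmo1 by 0.26 ± 0.12 and Lbr by 0.25 ± 0.11. Dhcr7 differed by 0.23 ± 0.08 and Sc5d by 0.16 ± 0.07. Tm7sf2 was the enzyme with a negative difference, -0.12 ± 0.10, and Ggps1 was near 0 at 0.02 ± 0.10. Outside synthesis, Insig2 (-0.17 ± 0.10), Npc1l1 (-0.22 ± 0.13) and Mylip (-0.13 ± 0.12) lay lower and Stard4 was at 0.08 ± 0.09. Srebf2 differed by 0.02 ± 0.08, with an interval of -0.14 to 0.18. Without marrow-only vehicle mouse 3, which had the lowest enzyme mean of its group, the median over members was 0.127 and 6 members were under an unadjusted p of 0.05. Without marrow-only ICA mouse 3, which had the highest, 6 were, and without marrow-only vehicle mouse 2, 7 were. For these omissions the share of all genes at that level was not counted.

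ICA thus went with lower levels in T cell mice and higher levels in marrow-only mice for 19 of the 25 members and 16 of the 18 enzymes, where 28% of all genes had this pattern of signs. The reverse pattern was that of Insig2, against 21% of all genes. Tm7sf2, Npc1l1 and Mylip lay lower with ICA in both arms, and Lbr and Scap higher in both. The ICA comparisons of the 2 arms share no mice. When each mouse was left out in turn, 17 to 20 members and 15 to 17 enzymes had this pattern, and without the 3 arrays that stood apart 18 members and 15 enzymes did.

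**Figure D4:**
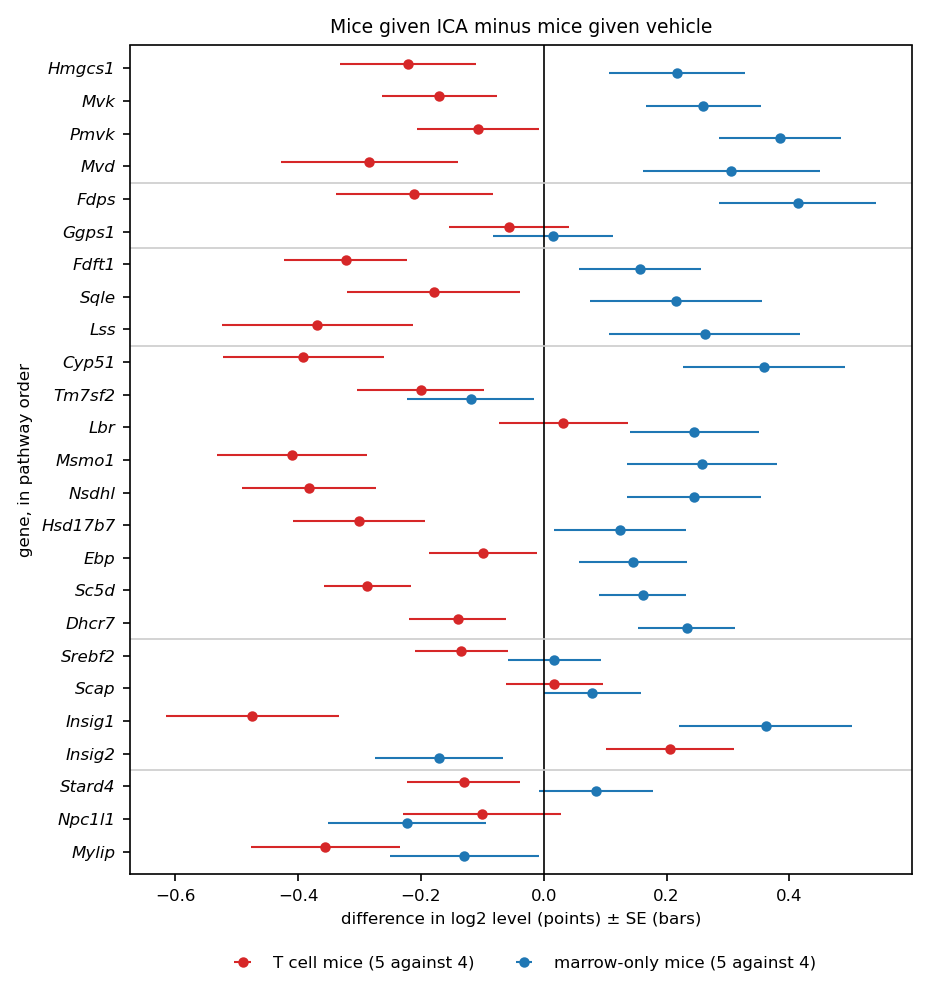
Mice on ICA minus mice on vehicle in log2 level for each of the 25 members in pathway order; points are differences and bars are ± SE from the limma model, in red for T cell mice and in blue for marrow-only mice (5 against 4 each). From Hmgcs1 to Dhcr7, 17 of 18 red points lie left of 0 and 17 of 18 blue points lie right of it, and for Insig2 the order is turned.

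The test of this contrast is the interaction, the ICA difference in T cell mice minus that in marrow-only mice. In limma no member and no other gene passed it, so 0% of all genes were called, and the lowest adjusted p of a member was 0.677. At an unadjusted p under 0.05, 14 members were lower and 1 was higher (Insig2), against 3.94% and 2.74% of all genes. By sign 2 members were higher and 23 lower, against 44.8% and 55.2% of all genes. All 18 enzymes were negative, 13 of them at that unadjusted level, and the median was -0.43 over the members against -0.022 over all genes. The opposite ICA shifts are therefore not shown gene by gene after adjustment over all genes.

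Step by step, the interaction was -0.44 ± 0.16 for Hmgcs1, -0.43 ± 0.13 for Mvk, -0.49 ± 0.14 for Pmvk and -0.59 ± 0.20 for Mvd, so the mevalonate steps differed little among themselves. Before the isoprenoid branch Fdps, whose product feeds both sterols and protein prenylation, stood at -0.62 ± 0.18. Ggps1, on the way to protein prenylation, stood at -0.07 ± 0.14. Fdft1, Sqle and Lss followed with -0.48 ± 0.14, -0.39 ± 0.20 and -0.63 ± 0.22. The largest value of an enzyme was that of the demethylase Cyp51, -0.75 ± 0.19, followed among the later steps by Msmo1 at -0.67 ± 0.17 and Nsdhl at -0.63 ± 0.15. Sc5d stood at -0.45 ± 0.10 and had the smallest unadjusted p of the members, 0.000224. Lower down came Hsd17b7 at -0.43 ± 0.15, Dhcr7 at -0.37 ± 0.11 and Ebp at -0.24 ± 0.12. The reductases Lbr and Tm7sf2 stood at -0.21 ± 0.15 and -0.08 ± 0.15. Ggps1, Sqle, Tm7sf2, Lbr and Ebp were the enzymes that did not reach the unadjusted level.

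Among the control genes Insig1 had the largest interaction of all members, -0.84 ± 0.20, and Insig2 stood opposite at 0.38 ± 0.15. Srebf2 and Scap were at -0.15 ± 0.11 and -0.06 ± 0.11, and neither reached the unadjusted level. Stard4 was at -0.22 ± 0.13, Npc1l1 at 0.12 ± 0.18 and Mylip at -0.23 ± 0.17. The group order of Insig1 was 9.74 ± 0.16 (SD, n = 4) in marrow-only vehicle, 9.99 ± 0.26 (n = 5) in T cell ICA, 10.10 ± 0.28 (n = 5) in marrow-only ICA and 10.47 ± 0.21 (n = 4) in T cell vehicle mice, and the 2 ICA groups in the middle differed by less than their SDs. That of Insig2 was the reverse in its end groups, from 8.51 ± 0.14 in T cell vehicle through 8.71 ± 0.13 in T cell ICA and 8.86 ± 0.20 in marrow-only ICA to 9.03 ± 0.16 in marrow-only vehicle mice. Its neighbouring groups overlapped each other. Without T cell ICA mouse 1 the median interaction over members was -0.358, and without the 3 arrays it was -0.32.

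Other parts of sterol and lipid metabolism were read from 5 lists of related genes. Of 12 measured genes of fatty acid synthesis and SREBP1, Srebf1, the gene of SREBP1 itself, rose with T cells on vehicle by 0.44 ± 0.10 (adjusted p = 0.0246). Its ICA difference was -0.18 ± 0.09 in T cell mice and 0.24 ± 0.09 in marrow-only mice. None of the 12 passed in the other comparisons, where at most 5 were under an unadjusted p of 0.05 in a direction (5 higher with ICA in marrow-only mice). The list median for ICA was 0.079 in T cell mice and 0.24 in marrow-only mice, so in T cell mice it did not share the sign of the cholesterol enzymes. Of 8 LXR and oxysterol genes, Cyp27a1, which makes an oxysterol from cholesterol and takes part in bile acid synthesis, rose with T cells on vehicle by 0.82 ± 0.18 (adjusted p = 0.0255) and was the only 1 of the list to pass in any comparison. In T cell mice it lay at -0.75 ± 0.17 with ICA (adjusted p = 0.204).

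In the other 3 lists no gene passed in limma in any comparison. Of 10 genes of isoprenoid use, such as the prenyltransferase subunit Fnta (0.19 ± 0.12) and the dolichol kinase Dolk (-0.14 ± 0.08), 0 passed even an unadjusted p under 0.05 with T cells on vehicle, 5 were lower at that level with T cells on ICA, and 0 passed it in the other comparisons. Of 7 genes of SREBP processing and sterol-regulated degradation, 0 passed at the unadjusted level in any comparison. There the protease gene Mbtps1, whose product makes the first cut in SREBP2, differed by -0.10 ± 0.08 with T cells on vehicle and Erlin1 by 0.14 ± 0.12. Of 12 genes of intracellular sterol transport, 3 were higher at the unadjusted level with T cells on vehicle, 3 with T cells on ICA, and 2 were lower with ICA in T cell mice. Among them Lipa, the lysosomal lipase that frees cholesterol from its esters, differed by 0.31 ± 0.10 and the sterol carrier Stard5 by 0.28 ± 0.09.

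Lists of clock and cell type genes show what else moved with the members. Of 7 measured late-day clock genes such as Per3, 6 rose with T cells on vehicle (median 0.89). In T cell mice 2 fell with ICA (median -0.63) and in marrow-only mice 1 fell (median -0.33). Their mean level ran from 7.59 to 8.11 in marrow-only vehicle, 7.35 to 7.70 in marrow-only ICA, 8.67 to 8.98 in T cell vehicle and 8.025 to 8.36 in T cell ICA mice. On ICA 6 of the 7 rose with T cells (median 0.73), where 16 of the 18 enzymes lay lower. The clock list thus shared the sign of the enzymes with T cells on vehicle and with ICA in T cell mice, and had the opposite sign with T cells on ICA and with ICA in marrow-only mice. Dawn clock genes went the other way with T cells on vehicle, where 2 of 4 fell (median -0.70). The part of the clock genes in the results was not tested.

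Immune cell markers also moved. With T cells on vehicle 4 of 10 T cell markers rose (median 0.61), their mean level running from 6.62 to 7.11 in marrow-only and 7.46 to 8.29 in T cell mice. Of 10 macrophage markers 4 rose (median 0.65), with mean levels of 7.87 to 8.15 and 8.39 to 8.80, and 3 of 7 B cell markers fell (median -0.58), with means of 6.235 to 6.45 and 5.76 to 5.96. With ICA in T cell mice the T cell and macrophage lists had medians of 0.037 and -0.0396 with 0 changed, and 0 at an unadjusted p under 0.05, while the enzymes lay lower. In marrow-only mice on ICA the T cell list had a median of 0.38, with 0 of 10 changed and 4 at the unadjusted level. All 10 macrophage markers were higher there (median 0.22), with 0 changed and 1 at the unadjusted level. Both lists had the sign of most enzymes. With T cells on ICA 2 of 10 T cell markers rose and 1 fell (median 0.34). Of the macrophage markers 2 rose and 0 fell (median 0.40), and 3 of 7 B cell markers fell (median -0.35). In that comparison 16 of the 18 enzymes lay lower. The part of these cells in the members' results was not tested.

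Of the general markers of the epithelium, the lining of the gut, 0 of 10 changed in any comparison, 0 were under an unadjusted p of 0.05, and the group means lay between 11.71 and 11.73. Of 10 ileal enterocyte markers 0 changed with T cells on vehicle and 1 was higher and 1 lower at the unadjusted level (median 0.17). With ICA in marrow-only mice 7 of 10 were lower at the unadjusted level (median -0.33), the opposite sign of the enzymes, and the list ranged from 10.5 to 11.4 there against 11.14 to 11.37 on vehicle. With ICA in T cell mice 9 of 10 were lower, 2 of them at the unadjusted level (median -0.17), the same sign as the enzymes. With T cells on ICA 1 of 10 rose (median 0.21). Smooth muscle markers had a median of 0.28 with T cells on vehicle, with 0 of 9 changed and 6 higher at the unadjusted level. On ICA, T cells went with a rise in 6 of the 9, and all 9 were higher at the unadjusted level (median 0.43), and their mean level ran from 10.32 to 10.56 in marrow-only and 10.65 to 11.04 in T cell mice. Of 9 proliferation markers 0 changed with T cells on vehicle and none was under the unadjusted level. All 9 lay lower there (median -0.097), the opposite sign of the enzymes. With ICA in T cell mice 7 of 9 were higher, 0 at the unadjusted level (median 0.061), again opposite to most enzymes. With T cells on ICA all 9 were lower and 1 fell (median -0.19). With ICA in marrow-only mice all 9 were higher, 2 at the unadjusted level (median 0.13). In these last 2 comparisons the sign was that of most enzymes. Fibroblast markers had a median of 0.18 with T cells on vehicle, with 0 of 8 changed and 2 higher at the unadjusted level. On ICA 5 of the 8 rose with T cells (median 0.36), their mean level running from 9.16 to 9.42 in marrow-only and 9.55 to 9.84 in T cell mice. With ICA in T cell mice 0 changed and 4 were higher at the unadjusted level (median 0.21). The part of these cell types in the members' results was not tested. Hepatocyte and pancreas lists, for neighbouring tissue, had group means from 6.04 to 6.19 and from 6.08 to 6.17, with 0 changed in any comparison and at most 1 in a direction at the unadjusted level.

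**Figure D5:**
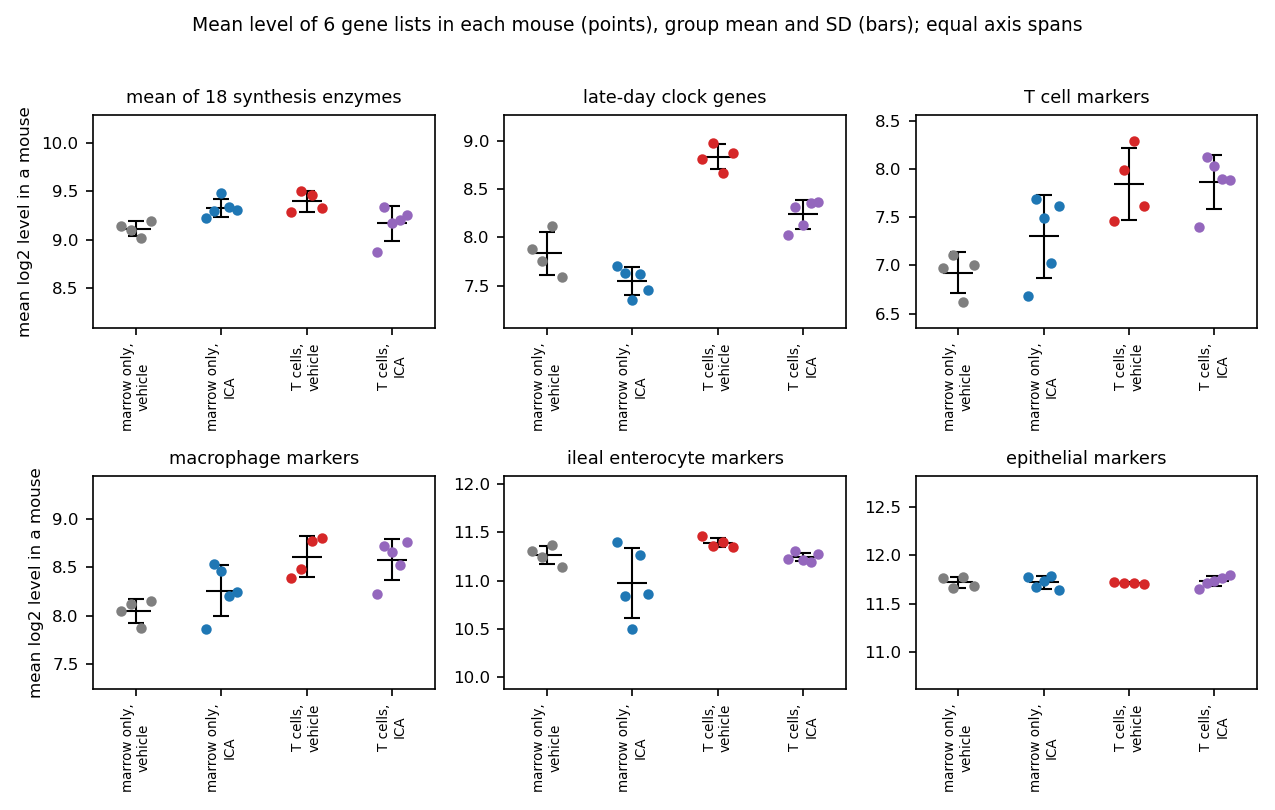
Mean log2 level of 6 gene lists in each mouse (points) by group, with group mean and SD (bars); all panels span the same number of log2 units. The 18 enzymes rank T cell vehicle, marrow-only ICA, T cell ICA and marrow-only vehicle from high to low, the late-day clock list puts T cell vehicle first and marrow-only ICA last, and the epithelial list lies between 11.64 and 11.79 in all mice.

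Within groups, likeness from mouse to mouse was measured after subtraction of the group means, as the correlation of each member with the mean of the other measured members. Over 18 arrays r was above 0.5 for 18 of 25 members and below 0 for 2, Npc1l1 (-0.29) and Mylip (-0.17). Over the 17 arrays without T cell ICA mouse 1 it was above 0.5 for 13 and below 0 for 7. Cyp51 was at 0.94 and then 0.87, while Dhcr7 went from 0.57 to 0.13, Stard4 from 0.55 to 0.15, Lbr from 0.47 to -0.19 and Ebp from 0.45 to -0.03. Outside the set, the genes closest to the mean of the members by this measure were Abcc4 (r = 0.91), Ddx11 (0.89), Tbc1d2b (0.89), Stk32c (0.89), Ddx27 (0.88) and Ticrr (0.86). Without T cell ICA mouse 1 these were between 0.68 and 0.82, so part of the likeness rests on that array. The points share their arrays, and these values are descriptions with no test.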

How the data were processed

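Per the labels' protocols, total RNA was extracted with Trizol, amplified from 250 ng and labelled for Affymetrix whole-transcript arrays, 1 per mouse. The deposited values were taken as log2 levels made by the authors with RMA. The submitters' processing notes name RMA, Partek and GenomeStudio, with versions, filters and log base not given in the sources used here. No further normalization or filter was applied.

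Of 41345 probe sets, 23521 had 1 gene symbol in the platform annotation, 1814 had several and 16010 had none listed. A gene was read from its 1-symbol probe set with the highest mean, which gave 22180 genes, and 23328 probe sets matched RefSeq by Entrez ID. One linear model with a mean per group was fitted to all 18 arrays in R 4.3.3 with limma 3.58.1, with moderated variances and a trend on mean level (14 residual and 6.1 prior degrees of freedom). The 5 comparisons were two-sided, with p adjusted over the 22180 genes by the method of Benjamini and Hochberg within each. The code of the fit was run on simulated data, with independent normal values for each gene and an equal spread in all groups. Such a run checks the code and not whether these assumptions hold for the arrays. The number of arrays limits the precision.

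The members, the 17 lists and the tests were chosen with earlier results of these data known. All members are named. From a pathway list the text names genes that changed in any comparison, or else those with the 2 smallest p with T cells on vehicle, and outside the set the 6 genes closest to the members over the 18 arrays. Promoters and names came from RefSeq tables (GRCm38.p6). Figures were drawn with matplotlib 3.10.9.

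Same-numbered mice of different groups were not treated as pairs, since the labels do not pair them. Of 25 same-numbered combinations, 3 had deviations from their group means correlated over 0.1 (r from -0.142 to 0.201). These correlations cannot show whether such mice were handled together. The alternatives tried were each mouse left out, the 3 arrays that stood apart left out, a fit of the compared groups alone, a block for mouse number, further normalization, filters on low values, averaged probe sets, and other treatments of the variance.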

Additional observations from a re-analysis of the deposited data

Results flagged for a closer look

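Single mice stood apart from the rest of their group in 6 of 104 groups of values examined (5.77%), by the gap to the nearest mouse relative to the range of the group. Chance gives about 1 in 20. T cell ICA mouse 1 was the lowest of its group for Cyp51, at 8.481 against 9.09 to 9.284 in the other 4 mice, and for Nsdhl, at 9.211 against 9.655 to 9.743. Marrow-only ICA mouse 1 was the highest for Tm7sf2, at 8.594 against 8.141 to 8.263, and the lowest for Ebp, at 9.078 against 9.304 to 9.378. Marrow-only ICA mouse 3 was the highest for Nsdhl, at 10.06 against 9.712 to 9.797. Marrow-only vehicle mouse 3 was the highest for Lbr, at 9.559 against 9.507 to 9.515, a group with a very small range.

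Nsdhl was the member whose ICA and vehicle mice separated without overlap in both arms and in opposite directions. The share of all genes that did so in both arms was not counted. Taken singly, 1.78% of all genes were lower in T cell mice and 1.35% higher in marrow-only mice without overlap. All 5 T cell mice on ICA lay below the 4 on vehicle, and all 5 marrow-only mice on ICA lay above the 4 on vehicle. The interaction was -0.626 ± 0.154 in limma, with an adjusted p of 0.677 over all genes.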

How the results depend on the processing

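No called result turned its sign under the 30 alternatives, 18 of which left out 1 mouse. With T cells on vehicle, 4 members changed as reported (1.47% of all genes), 9 in a model of only the groups compared (3.72%), 7 without the 3 arrays that stood apart (2.99%), 11 with array weights (4.84%) and 0 without moderation of the variance (0.663%, and 13 members at an unadjusted p under 0.05). With each mouse left out the count ran from 0 to 8 and the share of all genes from 0.424% to 2.32%. Sc5d was also lost when arrays were centred on their medians (adjusted p = 0.0602) and without the trend (0.0673). With T cells on ICA, 0 members changed as reported, 2 without the 3 arrays (Mvd, Mylip), 1 with array weights (Mylip; 4.73% of all genes) and 0 to 4 with a mouse left out. In both ICA comparisons and the interaction 0 members changed in limma under every alternative, and at an unadjusted p under 0.05 there were 9, 11 and 15 as reported. The median interaction moved to -0.3203 without the 3 arrays. The opposite ICA signs held for 17 members and 15 enzymes after quantile normalization or centring. The causes of these shifts were not tested. At the unadjusted level the share of all genes was counted only for the fit as reported.

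Mouse number as a replicate block gave 4 members with T cells on vehicle, of which Nsdhl was new and Sc5d was lost (adjusted p = 0.0519). It changed no other call of a member. The numbers do not pair the mice by the labels.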
